A study of Mus musculus with 11 samples.

Results

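The genes described here are 7 markers of fetal liver and of liver cancer: Afp, H19, Gpc3, Golm1, Robo1, Dlk1 and Cd44. They were followed in liver tissue without tumours in 3 groups of male mice aged 14 months. The first group lacked both Mdr2 and interleukin 6 (Mdr2-KO/IL6-KO, n = 4 arrays), the second lacked Mdr2 alone (Mdr2-KO, n = 4), and the third was wild type C57BL/6 (n = 3). Both knockout groups thus share the loss of Mdr2, and only the first also lacks interleukin 6. The labels give a strain for the wild-type arrays only and do not describe how either gene was inactivated. Each gene was read from the probe set annotated to its symbol alone. Of the 7 genes, 6 had 1 such probe set each among the 19938 genes tested. No probe set was annotated to H19, which is therefore named here without a value.

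Mdr2, encoded by Abcb4, moves phosphatidylcholine across the canalicular membrane of hepatocytes into bile. Its loss in mice leads to injury of the bile ducts, then to fibrosis and, late in life, to liver tumours. Oncofetal genes are active in the hepatoblasts of the fetal liver, are shut down after birth and can come back in regenerating liver and in hepatocellular carcinoma. Alpha-fetoprotein (Afp), the H19 long noncoding RNA and the proteoglycan glypican 3 (Gpc3) belong to this class, and in mice all 3 are repressed after birth by Zhx2. Dlk1 marks hepatoblasts. Golm1, Robo1 and Cd44 are raised in many human liver cancers, but each is also made by cells of the liver other than hepatocytes.

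Values are log2 levels as deposited, on which a difference of 1 is a doubling of signal. Array medians lay between 5.09 and 5.23, and Pearson r over probe sets was 0.976 to 0.990 between any pair of arrays. Abcb4 was lower than in wild type by 3.34-fold in Mdr2-KO/IL6-KO (adjusted p = 6.75e-06) and by 4.26-fold in Mdr2-KO livers (adjusted p = 2.22e-06, limma), as the labels would have it. The Il6 probe set read between 1.62 and 2.09 on all 11 arrays, including those with an intact gene, so it does not check the label. The 9 hepatocyte markers measured, Alb among them, averaged 12.1 to 12.3 on every array. The second principal component, with 19.5% of the variance, was widest within Mdr2-KO, between replicate 2 at -25.8 and replicate 3 at 21.0.

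Golm1 and Robo1 were the only members of the 6 that passed the test, and both were higher in each knockout group than in wild type. Each rise was a little under 2-fold. Afp, the classical marker of the set, and Dlk1 did not pass, and their arrays overlapped between all groups. Gpc3 and Cd44 had higher means in the knockout groups but did not pass. The threshold for a call was an adjusted p below 0.05, with all 19938 genes in the adjustment. The 2 of 6 called higher, and 0 of 6 lower, stand beside background shares of 2.91% higher and 1.28% lower (4.19% in all) in Mdr2-KO/IL6-KO against wild type. In Mdr2-KO against wild type the background shares were 0.948% higher and 0.316% lower (1.26% in all). Earlier results of these data were known when the members were chosen, so this count is not independent evidence. Both comparisons use the same 3 wild-type arrays.

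**Figure D1:**
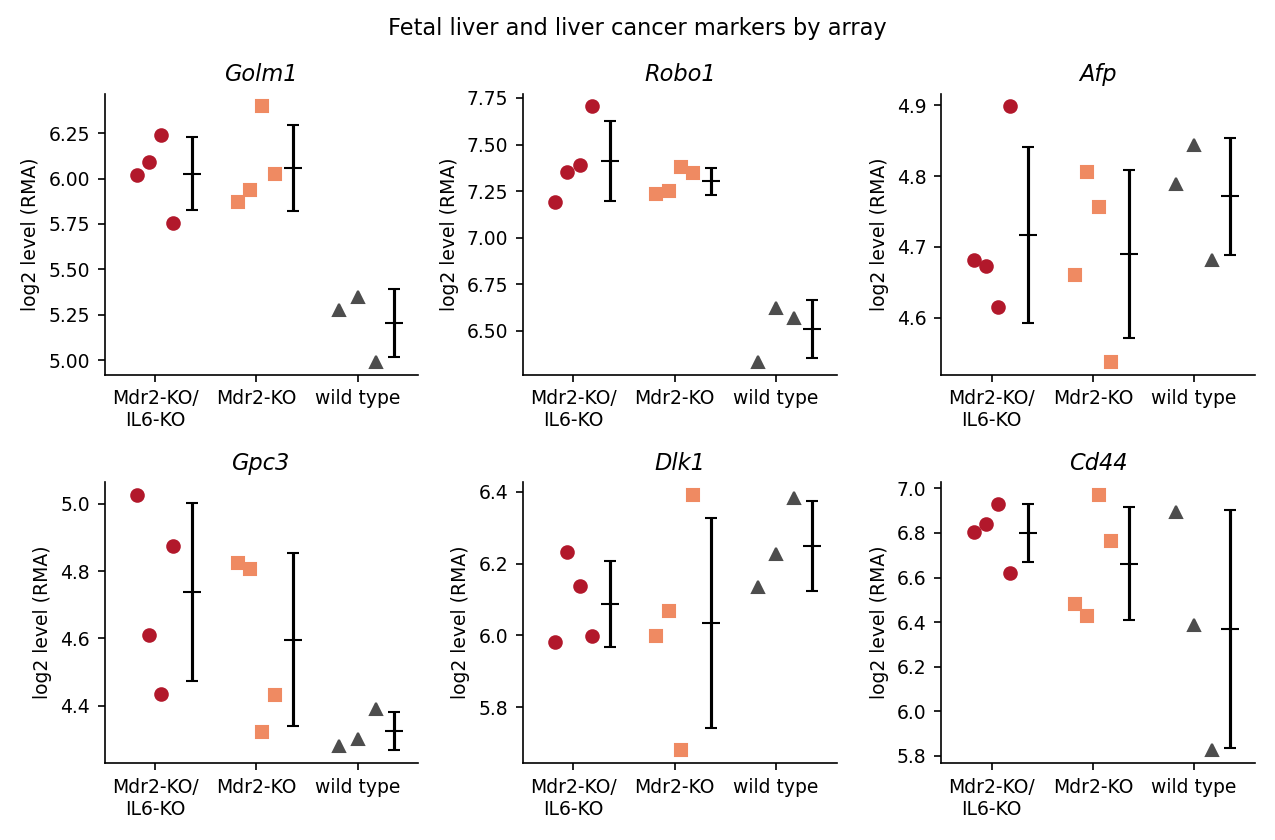
Log2 level of each measured gene on every array, with points for arrays and the bar beside them for the group mean ± SD (n = 4, 4 and 3; each panel has its own axis, which does not start at 0). The 8 knockout arrays lie above the 3 wild-type arrays for Golm1 and Robo1, and the groups overlap for Afp, Dlk1 and Cd44.

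Golm1 encodes a membrane protein of the cis-Golgi, also called GP73, that in healthy human liver is found mainly in bile duct epithelium and appears in hepatocytes in chronic liver disease. The mouse probe set 10409767 read 6.02, 6.09, 6.24 and 5.76 in Mdr2-KO/IL6-KO livers, 5.87, 5.94, 6.40 and 6.02 in Mdr2-KO livers, and 5.28, 5.35 and 4.99 in wild-type livers. The lowest knockout array, Mdr2-KO/IL6-KO replicate 4, was still above the highest wild-type array, and Mdr2-KO replicate 3 was the highest of all. Group means were 6.03 ± 0.20 in Mdr2-KO/IL6-KO (SD, n = 4), 6.06 ± 0.24 in Mdr2-KO (SD, n = 4) and 5.20 ± 0.19 in wild type (SD, n = 3). Against wild type, Golm1 rose by a log2 change of 0.82 ± 0.14 (SE) in Mdr2-KO/IL6-KO, which is 1.77-fold, with an adjusted p of 0.00530. In Mdr2-KO it rose by 0.85 ± 0.14 (SE), or 1.81-fold, with an adjusted p of 0.00964. The Mdr2-KO call ended without wild-type replicate 3, the array with the lowest Golm1 (log2 change 0.75, adjusted p = 0.0536). In whole tissue, more cells of a type and more RNA per cell cannot be told apart.

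Robo1 is a transmembrane receptor for SLIT proteins, best known from axon guidance, and has been described as a surface antigen of human hepatocellular carcinoma. Its levels (probe set 10436519) were 7.19, 7.35, 7.39 and 7.71 in Mdr2-KO/IL6-KO livers, 7.24, 7.25, 7.38 and 7.35 in Mdr2-KO livers, and 6.33, 6.62 and 6.57 in wild-type livers. Every knockout array was above every wild-type array. The gene averaged 7.41 ± 0.21 in Mdr2-KO/IL6-KO (SD, n = 4), 7.30 ± 0.071 in Mdr2-KO (SD, n = 4) and 6.51 ± 0.16 in wild type (SD, n = 3). The log2 change against wild type was 0.90 ± 0.12 (SE) for Mdr2-KO/IL6-KO, a 1.87-fold rise with an adjusted p of 0.000747. For Mdr2-KO it was 0.79 ± 0.12 (SE), a 1.73-fold rise with an adjusted p of 0.00514. Both calls were kept under all 18 alternatives tried, with adjusted p of at most 0.0314.

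The promoters of Golm1 and Robo1, which rose together, are shown beside that of Afp, which did not pass, because the 3 differ in base composition and in the short motifs they hold. Each is the 250 bases before the 1 start that RefSeq's table of GRCm38.p6 gives for the gene, printed 5′ to 3′ on the gene's strand, with capitals for a match to any motif searched. The windows are chr13:59675785-59676034 on the minus strand, chr16:72662899-72663148 on the plus strand and chr5:90490464-90490713 on the plus strand. The Golm1 and Afp windows end where the RefSeq gene begins, whereas the Robo1 window lies within the span of the RefSeq gene, before an internal start. Which start is used in liver was not tested for any of them.
Golm1: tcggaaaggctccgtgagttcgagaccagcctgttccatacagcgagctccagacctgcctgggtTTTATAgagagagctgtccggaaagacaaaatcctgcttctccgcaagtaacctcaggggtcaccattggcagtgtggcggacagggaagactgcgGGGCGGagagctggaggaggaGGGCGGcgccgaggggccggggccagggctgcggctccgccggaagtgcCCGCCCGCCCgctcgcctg
Robo1: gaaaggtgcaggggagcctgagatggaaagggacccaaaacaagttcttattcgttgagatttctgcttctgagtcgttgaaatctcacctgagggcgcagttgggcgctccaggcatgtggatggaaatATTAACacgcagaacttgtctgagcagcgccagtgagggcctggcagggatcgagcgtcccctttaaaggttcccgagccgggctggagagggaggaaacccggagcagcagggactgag
Afp: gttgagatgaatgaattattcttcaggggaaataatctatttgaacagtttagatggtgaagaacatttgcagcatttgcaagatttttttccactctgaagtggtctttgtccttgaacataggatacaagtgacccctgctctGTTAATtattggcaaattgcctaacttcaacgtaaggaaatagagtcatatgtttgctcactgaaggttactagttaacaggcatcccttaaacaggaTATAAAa
Searched on both strands were the TATA box TATAAA, the GC box GGGCGG, the HNF1 half-site GTTAAT, the AP-1 site TGANTCA, the TEAD site GGAATG, the STAT site TTCNNNGAA and the RBPJ site GTGGGAA. The Golm1 window was 65.6% G and C and held 4 GC boxes, of which the last pair overlap, and 1 TATA box read on the opposite strand. The Robo1 window was 56.0% G and C and held 1 HNF1 half-site. The Afp window was 36.0% G and C, against a median of 52.4% over the 32851 promoters of the table, and held 1 TATA box and 1 HNF1 half-site. That TATA box begins at position -7 from the listed start, so the window may lie upstream of the start used in liver, and its composition and matches hold for the listed start only. Of all promoters in the table, 32.7% held a GC box, 12.4% a TATA box and 6.43% an HNF1 half-site in this window. AP-1, TEAD, STAT and RBPJ letters were in none of the 3 windows, and 6.75%, 12.6%, 7.02% and 5.42% of all promoters held them. Of the members not shown, the Gpc3 window was 71.6% G and C and held 3 GC boxes. The windows of Cd44 (56.4%) and Dlk1 (54.8%) held none of the motifs searched. Gpc3, Cd44 and Dlk1 did not pass either, and a link of base composition or motifs with the changes was not tested. A match is a string of letters and was not tested as a binding site.

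Afp encodes the main serum protein of the fetus, made by hepatoblasts and yolk sac, and lies in the albumin gene cluster. Its probe set 10523078 read 4.68, 4.67, 4.62 and 4.90 in Mdr2-KO/IL6-KO livers, 4.66, 4.81, 4.76 and 4.54 in Mdr2-KO livers, and 4.79, 4.84 and 4.68 in wild-type livers. The 3 groups overlapped throughout, and all 11 arrays lay between 4.54 and 4.90. The log2 change against wild type was -0.05 in Mdr2-KO/IL6-KO (95% interval -0.26 to 0.15, adjusted p = 0.878) and -0.08 in Mdr2-KO (95% interval -0.29 to 0.13, adjusted p = 0.895). As folds, these intervals end at 1.11 and 1.09 on the upper side. Calls of signal over background were not used here, so whether any Afp RNA was present is not known from these values.

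Gpc3 is a heparan sulfate proteoglycan anchored in the cell membrane, X-linked, and a diagnostic antigen of human hepatocellular carcinoma. Levels of its probe set 10604576 were 5.03, 4.61, 4.44 and 4.88 in Mdr2-KO/IL6-KO livers, 4.82, 4.81, 4.32 and 4.43 in Mdr2-KO livers, and 4.28, 4.30 and 4.39 in wild-type livers. The Mdr2-KO/IL6-KO arrays were all above wild type, whereas Mdr2-KO replicate 3 lay among the wild-type arrays. Of all genes, 9.85% had every Mdr2-KO/IL6-KO array, and 5.49% every Mdr2-KO array, above every wild-type array. Gpc3 was 1.33-fold higher in Mdr2-KO/IL6-KO than in wild type (log2 change 0.41, 95% interval 0.086 to 0.74) and did not pass after adjustment (adjusted p = 0.185). In Mdr2-KO livers it was 1.21-fold higher than in wild type (adjusted p = 0.627). The knockout arrays were also more spread, with SDs of 0.26 in each knockout group and 0.057 in wild type. All 11 arrays read Gpc3 between 4.28 and 5.03, below the array medians of 5.09 to 5.23. Whether this signal was above background is not known from these values.

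Dlk1, an imprinted gene, encodes a membrane protein with EGF-like repeats related to Notch ligands, and is on in hepatoblasts and off in adult hepatocytes. Its probe set 10398319 gave 5.98, 6.23, 6.14 and 6.00 in Mdr2-KO/IL6-KO livers, 6.00, 6.07, 5.68 and 6.39 in Mdr2-KO livers, and 6.13, 6.23 and 6.38 in wild-type livers. Both the lowest and the highest array of the 11 were Mdr2-KO arrays, replicates 3 and 4. Means were lower than in wild type, by a log2 change of -0.16 in Mdr2-KO/IL6-KO (95% interval -0.46 to 0.14, adjusted p = 0.687) and -0.21 in Mdr2-KO (95% interval -0.51 to 0.086, adjusted p = 0.714). No rise above 1.10-fold or 1.06-fold lies within these intervals. These limits hold for the signal of the probe set, and whether it was above background is not known from these values.

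Cd44 is the cell-surface receptor for hyaluronan, carried by leukocytes and by progenitor and tumour cells. Its probe set 10485405 read 6.80, 6.84, 6.93 and 6.62 in Mdr2-KO/IL6-KO livers, 6.48, 6.43, 6.97 and 6.77 in Mdr2-KO livers, and 6.89, 6.39 and 5.82 in wild-type livers. Wild type had the widest spread of any group and gene here, an SD of 0.54, because replicate 1 was as high as the knockout arrays and replicate 3 was the lowest of all 11. Cd44 was 1.35-fold higher in Mdr2-KO/IL6-KO (log2 change 0.43, 95% interval -0.0055 to 0.86, adjusted p = 0.332) and 1.22-fold higher in Mdr2-KO livers (adjusted p = 0.743) than in wild type. Both differences moved with single wild-type arrays. Without wild-type replicate 3 the log2 change was 0.16 in Mdr2-KO/IL6-KO and 0.020 in Mdr2-KO. Without wild-type replicate 1 it was 0.69 in Mdr2-KO/IL6-KO and 0.56 in Mdr2-KO.

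Set against Mdr2-KO, the Mdr2-KO/IL6-KO livers show what further loss of interleukin 6 goes with once Mdr2 is absent. None of the 6 members passed (adjusted p = 0.9995 for each), their lowest unadjusted p was 0.335, for Gpc3, and the arrays of the groups overlapped for all 6. Of all genes, 0.00502% were called here, which is 1 gene, 4.82% had an unadjusted p under 0.05, and 2.51% had groups of arrays that lay apart. Golm1 differed by a log2 change of -0.03 (95% interval -0.32 to 0.26) and Robo1 by 0.11 (95% interval -0.13 to 0.34). In folds, the interval for Golm1 ran from 0.80 to 1.19 and that for Robo1 from 0.92 to 1.27. The other intervals were -0.17 to 0.22 for Afp, -0.16 to 0.44 for Gpc3, -0.23 to 0.33 for Dlk1 and -0.27 to 0.54 for Cd44. In order of group means, Golm1 was highest in Mdr2-KO, Robo1, Gpc3 and Cd44 in Mdr2-KO/IL6-KO, and Afp and Dlk1 in wild type. The 2 knockout groups were not told apart for any of them.

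**Figure D2:**
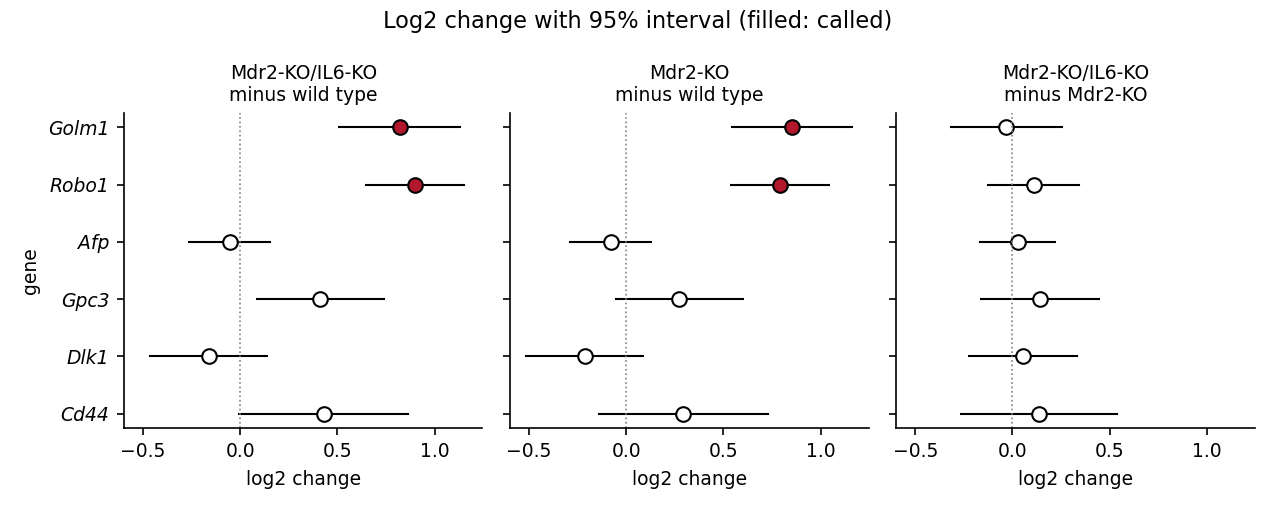
Log2 change of each gene in the 3 comparisons, with the 95% interval of the limma fit as a line and filled points for an adjusted p under 0.05. Only Golm1 and Robo1 are filled, between 0.79 and 0.90, in both comparisons with wild type, and every interval between the knockout groups spans 0.

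Other genes of the same pathways were read from lists. Beside Robo1, its relative Robo2 also rose. Of the 13 measured SLIT ligands, ROBO receptors and partners other than Robo1, Robo2 alone was called, in both comparisons. It read 6.33, 6.54, 6.39 and 6.28 in Mdr2-KO/IL6-KO livers, 6.41, 6.37, 6.24 and 6.30 in Mdr2-KO livers, and 5.86, 5.65 and 5.85 in wild-type livers. The rise was 1.51-fold in Mdr2-KO/IL6-KO (adjusted p = 0.00243) and 1.45-fold in Mdr2-KO (adjusted p = 0.0109, and 0.0599 without wild-type replicate 2). Of the ligands, Slit2 had a log2 change of 0.32 (adjusted p = 0.196) in Mdr2-KO/IL6-KO and 0.18 (adjusted p = 0.717) in Mdr2-KO against wild type, Slit3 -0.13 and -0.14, and Slit1 -0.13 and -0.03. The list's median log2 change was 0.021 and 0.064, against -0.00056 and -0.0056 over all genes.

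Among the glypicans other than Gpc3, 1 fell. Gpc1, a glypican that binds growth factors and SLIT proteins, fell 1.68-fold in Mdr2-KO/IL6-KO (adjusted p = 0.00106) and 1.73-fold in Mdr2-KO (adjusted p = 0.00175). It read 6.08, 6.02, 5.90 and 6.17 in Mdr2-KO/IL6-KO livers, 6.08, 6.10, 5.78 and 6.04 in Mdr2-KO livers, and 6.74, 6.90 and 6.73 in wild-type livers, with no overlap. It was the 1 called gene of 9 measured glypicans and related genes, whose median log2 change was 0.080 in Mdr2-KO/IL6-KO and 0.010 in Mdr2-KO.

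Among the 23 measured oncofetal, progenitor and cancer genes other than the members, 6 rose in Mdr2-KO/IL6-KO and 3 in Mdr2-KO against wild type, and none fell. Their median log2 change was 0.23 and 0.19. The cell-surface protein Tspan8 rose 4.54-fold in Mdr2-KO/IL6-KO and 4.29-fold in Mdr2-KO (adjusted p = 1.88e-05 and 4.57e-05). The adhesion molecule Epcam rose 2.56-fold and 2.44-fold, and Cd24a, a surface glycoprotein, 2.82-fold and 3.07-fold, with adjusted p of at most 0.00108. These 3 are also in the list of bile duct markers. Called in Mdr2-KO/IL6-KO but not in Mdr2-KO were the surface protein gene Ly6d (6.38-fold, adjusted p = 0.00308, and 2.23-fold, adjusted p = 0.332), the aldo-keto reductase Akr1b8 (1.89-fold, adjusted p = 0.00265, and 1.33-fold, adjusted p = 0.301) and the proliferation marker Mki67 (1.65-fold, adjusted p = 0.0341, and 1.17-fold, adjusted p = 0.777). Between the knockout groups none of these 3 passed (adjusted p of 0.657 to 0.981), and the Mki67 call ended in 6 of 18 alternatives, with an adjusted p of 0.149 without wild-type replicate 2.

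Regulators of the fetal hepatocyte programme included Zhx2, the repressor named above. Zhx2 had a log2 change against wild type of -0.06 in Mdr2-KO/IL6-KO (adjusted p = 0.878) and 0.09 in Mdr2-KO (adjusted p = 0.905). Of 17 measured regulators, 2 fell in Mdr2-KO/IL6-KO and 1 in Mdr2-KO, and none rose. Tbx3, a T-box factor of hepatoblasts, fell 1.59-fold and 1.72-fold (adjusted p = 0.0480 and 0.0442), calls that each ended in 9 of 18 alternatives and reached an adjusted p of 0.210 and 0.181 without wild-type replicate 3. Foxa3, a forkhead factor of hepatocytes, fell 1.55-fold in Mdr2-KO/IL6-KO (adjusted p = 0.00583) and was 1.28-fold lower in Mdr2-KO (adjusted p = 0.195). In the albumin family, to which Afp belongs, Alb had log2 changes of -0.08 and -0.04 (adjusted p = 0.726 and 0.944). Afm, which encodes the vitamin E carrier afamin, fell 1.53-fold in Mdr2-KO/IL6-KO (adjusted p = 0.0151, and 0.0692 without wild-type replicate 3) and was 1.13-fold lower in Mdr2-KO (adjusted p = 0.760).

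Imprinted genes were read because H19 and Dlk1 are imprinted. Of 14 measured, 1 rose in Mdr2-KO/IL6-KO and 0 were called in Mdr2-KO against wild type. Igf2, the growth factor gene next to H19, had log2 changes of -0.08 and -0.13 (adjusted p = 0.857 and 0.855), and Meg3, the noncoding RNA next to Dlk1, 0.14 and 0.09 (adjusted p = 0.661 and 0.898). The called gene was Grb10, an adaptor that restrains insulin and IGF receptor signalling, which rose 1.29-fold in Mdr2-KO/IL6-KO (adjusted p = 0.0213, and 0.107 without wild-type replicate 3) and was 1.27-fold higher in Mdr2-KO (adjusted p = 0.0652). For the 13 measured genes of DLK2 and the Notch pathway, 0 passed in either comparison. The lowest p belonged to the Notch ligand Jag1, 1.35-fold and 1.29-fold higher (adjusted p = 0.0568 and 0.227).

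Of 18 measured genes around hyaluronan and CD44, 1 rose in Mdr2-KO/IL6-KO and 0 were called in Mdr2-KO. Lyve1, the hyaluronan receptor of sinusoidal endothelium, rose 1.58-fold in Mdr2-KO/IL6-KO (adjusted p = 0.0357) and was 1.35-fold higher in Mdr2-KO (adjusted p = 0.330). Its call ended in 8 of 18 alternatives, with an adjusted p of 0.156 without wild-type replicate 1. The matrix protease Mmp14, which can cleave CD44, was 1.12-fold higher in Mdr2-KO/IL6-KO (adjusted p = 0.503) and 1.30-fold higher in Mdr2-KO (adjusted p = 0.109) than in wild type. None of 9 other Golgi genes was called beside Golm1, and the largest log2 change among them was 0.18 in Mdr2-KO/IL6-KO, for Arf1 (adjusted p = 0.374), and -0.20 in Mdr2-KO, for Tgoln1 (adjusted p = 0.495). Between the knockout groups no gene of these lists was called. Lowest in p there were Ly6d (2.86-fold higher in Mdr2-KO/IL6-KO, adjusted p = 0.657), Afm (1.36-fold lower, adjusted p = 0.657), Foxa3, Sulf2, Nck1, Notch1, Igf2r, Mmp14 and Golm2, 1 from each list (adjusted p = 0.9995 for these 7).

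**Figure D3:**
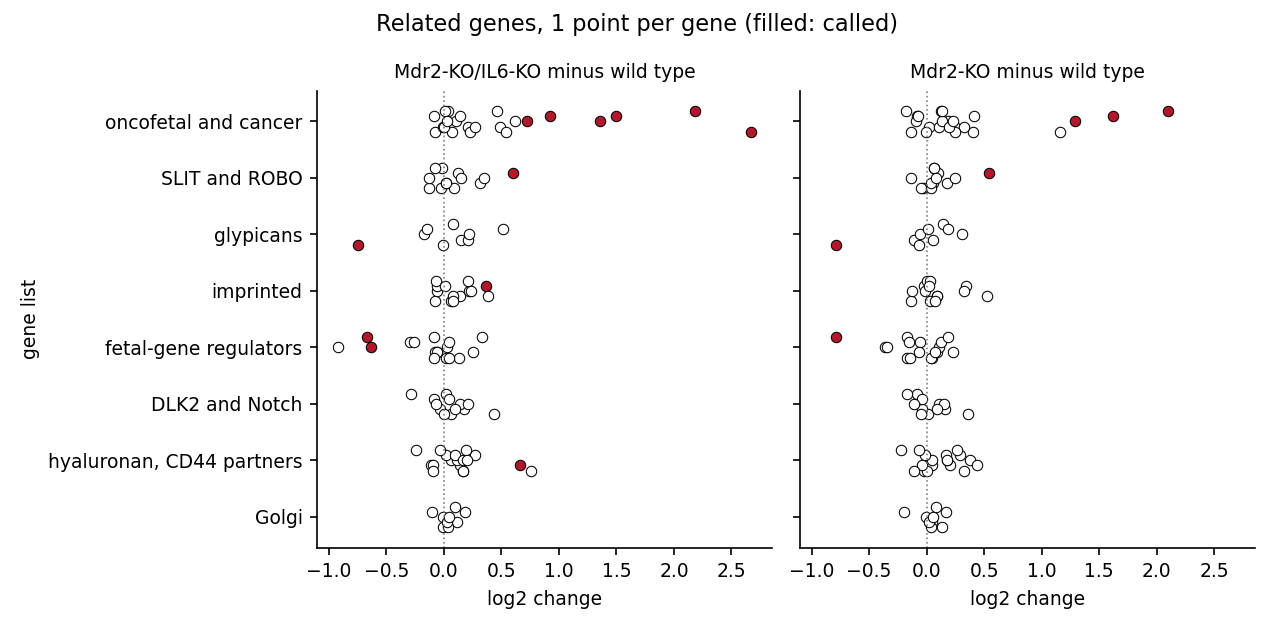
Log2 change against wild type of every measured gene of 8 related lists, 1 point per gene, filled where the adjusted p was under 0.05. Filled points to the right of 0 are mostly in the oncofetal and cancer list, 6 in Mdr2-KO/IL6-KO and 3 in Mdr2-KO, and Gpc1 is the filled point to the left among glypicans in both panels.

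Some markers of other liver cells rose along with Golm1 and Robo1. Of 10 measured bile duct cell (cholangiocyte) markers, 7 rose and none fell in each knockout group against wild type, with Krt19, a keratin of bile duct epithelium, up 2.32-fold in Mdr2-KO/IL6-KO and 2.45-fold in Mdr2-KO. The mean log2 level of these markers ranged from 6.08 to 6.43 over Mdr2-KO/IL6-KO arrays, from 6.07 to 6.30 over Mdr2-KO arrays and from 5.13 to 5.27 over wild-type arrays. Of 12 markers of stellate cells and myofibroblasts, 7 rose in Mdr2-KO/IL6-KO and 6 in Mdr2-KO, with array means of 6.96 to 7.25, 6.91 to 7.07 and, in wild type, 6.29 to 6.58. Those called in both comparisons included Dpt and Lum, which encode matrix proteins, and the collagens Col1a1 and Col3a1. These genes were up 1.96-fold to 3.97-fold in Mdr2-KO/IL6-KO and 1.82-fold to 3.45-fold in Mdr2-KO. Des, Lrat, Reln, Acta2 and Ngfr of the same list were called in neither comparison. Their log2 changes were 0.26, 0.12, -0.10, 0.05 and -0.07 in Mdr2-KO/IL6-KO, and 0.10, -0.03, -0.08, 0.14 and -0.21 in Mdr2-KO. Of 10 endothelial markers, 2 rose in Mdr2-KO/IL6-KO (Cd34 and Lyve1) and 1 in Mdr2-KO (Cd34), with array means of 7.07 to 7.25 in Mdr2-KO/IL6-KO, 6.97 to 7.16 in Mdr2-KO and 6.64 to 6.96 in wild type. Cd34, a surface glycoprotein of vascular endothelium, rose 2.67-fold in Mdr2-KO/IL6-KO and 2.42-fold in Mdr2-KO. Of 6 mesothelial markers, 1 rose in each knockout group, Krt19, which is also in the bile duct list, and array means were 4.81 to 5.02 in Mdr2-KO/IL6-KO, 4.65 to 4.93 in Mdr2-KO and 4.40 to 4.58 in wild type. For these 4 cell types, every knockout array mean lay above every wild-type array mean. The endothelial gap was narrow, with a lowest knockout array of 6.971 and a highest wild-type array of 6.964. Pecam1 and Cdh5 had log2 changes of 0.09 and -0.08 in Mdr2-KO/IL6-KO and -0.10 and -0.18 in Mdr2-KO. Of the 10 endothelial markers, 9 and 8 had positive changes in these comparisons. Cd34 counts in the endothelial mean and Krt19 in the mesothelial mean, and neither was left out. Hepatocyte markers were called in 0 of 9 cases in both comparisons. For 5 of the 9, Alb, Apoa1, Ttr, Cyp2e1 and Hnf4a, every Mdr2-KO/IL6-KO array was still below every wild-type array, and for Cps1 above. In Mdr2-KO livers Cyp2e1 likewise lay below and Cps1 above. The share of all genes with arrays apart and lower was not counted, so the 5 of 9 have no background to stand beside. The lymphocyte mean of every Mdr2-KO/IL6-KO array was below that of every wild-type array (4.70 to 4.86 against 4.93 to 5.39). So was the erythroid mean of 3 markers, narrowly (highest 6.096 against lowest 6.103). Mdr2-KO array means overlapped wild type in both lists. RMA log2 values have no true 0, so absence of a marker cannot be read from them. The part of these cells in the Golm1 and Robo1 results was not tested.

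Over the 11 arrays, Golm1 and Robo1 had a Pearson r of 0.93 and 0.91 with the cholangiocyte mean, values that include the differences between groups. Their coefficients within groups were less alike, but these rest on few arrays and a difference between the genes was not tested. After the group means were taken out, Golm1 had a Pearson r over the 11 arrays of 0.56 with the cholangiocyte mean and 0.42 with the stellate mean, and Robo1 of -0.12 and -0.49. With the endothelial mean it was 0.34 for Golm1 and -0.14 for Robo1, and with the mesothelial mean -0.37 for each. The highest r of Golm1 with any cell type was 0.60, with the macrophage and Kupffer cell mean, and that with the lymphocyte mean was 0.56. For Robo1 these were -0.20 and -0.24, and its highest was 0.40, with the hepatocyte mean. The array with the highest Robo1, Mdr2-KO/IL6-KO replicate 4, had the lowest Golm1 of all knockout arrays and the lowest cholangiocyte mean of its group. Cd44 had an r of 0.88 with the mean of 12 macrophage and Kupffer cell markers. Those markers averaged 7.32 to 7.48 in Mdr2-KO/IL6-KO, 7.14 to 7.62 in Mdr2-KO and 6.69 to 7.68 in wild type, where replicate 3 was lowest and replicate 1 highest, as for Cd44. In each comparison with wild type, 1 of the 12, Gpnmb, was called. Lymphocyte markers had an r of 0.82 with Cd44 within groups, but of 0.11 over the 11 arrays with the group means left in. Of these 11 markers 1, Cd8a, was called, lower in Mdr2-KO/IL6-KO. The endothelial mean had an r of 0.74 with Cd44 within groups. Values of one array share its RNA sample and hybridisation, and these coefficients are descriptions.

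**Figure D4:**
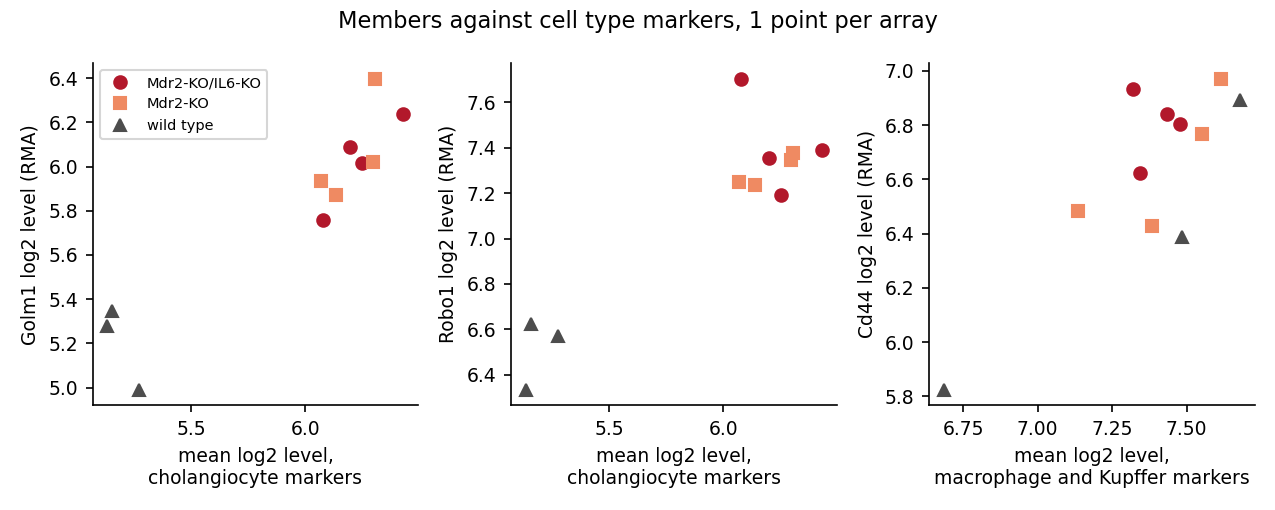
Level of Golm1 and Robo1 against the mean of 10 cholangiocyte markers, and of Cd44 against the mean of 12 macrophage and Kupffer cell markers, 1 point per array, all in log2. Wild-type arrays form a separate low group in the first pair of panels, and in the Cd44 panel wild-type replicates 1 and 3 lie at the opposite ends of the marker axis.

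The 6 genes did not vary as 1 block. Golm1 and Robo1 had an r of 0.81 over the 11 arrays and of -0.19 once the group means were taken out. Golm1 and Cd44 kept theirs, at 0.72 and 0.74, with Mdr2-KO replicate 3 highest in both genes. Gpc3 and Golm1 had an r of -0.74 within groups, and Mdr2-KO replicate 3 had the lowest Gpc3 of the knockout arrays. Afp and Dlk1 had an r of -0.61 within groups.

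For each member, the 3 genes with the highest r over the 11 arrays were taken as the most alike, so these values are high by selection. For Golm1 they were Tagln2 (0.96), Grb10 (0.96) and Plxdc2 (0.96), with 0.82, 0.78 and 0.76 after group means were taken out. Tagln2, which encodes an actin-binding protein, rose 1.87-fold in Mdr2-KO/IL6-KO (adjusted p = 0.00230) and 1.80-fold in Mdr2-KO (adjusted p = 0.00812). For Robo1 they were the protein kinase Prkca (0.95), Abhd1 (0.95) and Babam1 (0.95), and for Cd44 Cybb (0.97), Sptlc2 (0.95) and Oxct1 (0.95). Cybb encodes the catalytic subunit of the phagocyte NADPH oxidase, and its r with Cd44 was 0.97 within groups as well. For Afp they were Golga3 (0.92), Dvl3 (0.86) and Ankrd13a (0.84), for Gpc3 Nmt2, Fbp1 and Btbd9 (0.90 to 0.89), and for Dlk1 Prss42, Matn4 and Foxb2 (0.92 to 0.91).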

How the data were processed

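RNA from tumour-free liver was measured on 11 Affymetrix arrays. The authors deposited log2 levels for 35557 probe sets. RMA and Partek are the tools named in the submitters' processing notes, and their versions and settings are not given in the sources used here. All levels were used without further normalization. The platform annotation gave 21789 probe sets 1 symbol, 1621 several and 12147 none. Symbols were updated by Entrez identifier to RefSeq GRCm38.p6 (19856 of 19938 genes matched). The brightest probe set over all arrays stood for a gene.

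limma 3.58.1 in R 4.3.3 fitted the group means of all 11 arrays and 3 contrasts between them (lmFit, eBayes). Two-sided p-values were adjusted by Benjamini and Hochberg's method over 19938 genes. The labels give no batch, and wild-type titles carry another prefix (W) than knockout titles (BIL); what that stands for cannot be told apart from genotype. No label says that each array is its own mouse, so p-values measure the spread between samples. The number of arrays limits the precision. Members and lists were chosen with earlier results of these data known. Named were all members, up to 5 called genes of each list by lowest p (otherwise the 1 with the lowest p), the 3 genes most correlated with each member, and Abcb4, Il6, Zhx2, Alb and Igf2. Slit1, Slit2, Slit3, Meg3, Mki67 and the cell type markers in the text were chosen after their values were seen. Alternatives were the mean of probe sets, median centring, quantile normalization, a fit of the genes brighter than the median gene, eBayes with trend and robust, only the 2 groups compared, each array left out and, chosen after seeing the data, Mdr2-KO replicates 2 and 3 left out together.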

Additional observations from a re-analysis of the deposited data

How the results depend on the processing

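The calls of Golm1 and Robo1 against wild type kept their direction under all 18 alternatives, and only Golm1 in Mdr2-KO lost its call, without wild-type replicate 3. Several alternatives could not change the log2 change of these genes, only its adjusted p. These were the mean of probe sets, the brighter genes, trend and robust, the 2 groups alone, and leaving out an array of the group not compared. No other member gained a call against wild type; Afp and Gpc3 were not among the genes brighter than the median gene. Counts of genes over all 19938 moved more. In Mdr2-KO/IL6-KO against wild type the 836 called genes were 464 to 989 with 1 array left out, and 464, 533 and 521 without wild-type replicates 1, 2 and 3 and 535 and 551 without Mdr2-KO/IL6-KO replicates 1 and 3. In Mdr2-KO the 252 called genes were 138 with only the 2 groups compared and 148 to 323 with 1 array left out, of which 149, 148 and 163 were without wild-type replicates 1, 2 and 3. Between the knockout groups the 1 called gene became 4 among brighter genes, 2 with median centring, 2 with trend and robust, 2 without Mdr2-KO replicates 2 and 3, and 1 to 5 with 1 array left out, the 5 without Mdr2-KO replicate 3. In that contrast the small log2 changes of 3 uncalled members turned sign. With 1 array left out they were -0.10 to 0.082 for Golm1, -0.066 to 0.17 for Dlk1 and -0.034 to 0.066 for Afp. That of Golm1 was 0.082 without Mdr2-KO replicate 3, 0.058 without Mdr2-KO/IL6-KO replicate 4 and 0.079 without Mdr2-KO replicates 2 and 3. Dlk1 gave -0.066 without Mdr2-KO replicate 3 and -0.11 without replicates 2 and 3, and Afp gave -0.024 without Mdr2-KO replicate 4 and -0.034 without Mdr2-KO/IL6-KO replicate 4. The cause was not tested. No paired analysis was possible because the labels give no pairing of arrays between groups. The replicate numbers used here name arrays within a group and pair none across groups. Signal over background was not used here.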
